A study of Mus musculus with 3 samples.

Results

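The amino acid transporter genes described here are those whose symbol puts them in the solute carrier families SLC1, SLC3, SLC6, SLC7, SLC36, SLC38 and SLC43, with the osmolyte carriers Slc6a6 and Slc6a12 left out. They were 59 of 51803 gene symbols, and 28 of the 59 were over 0.3 FPKM (fragments scaled to transcript length and to the size of the library) in any library, against 15438 of all symbols. The rule goes by gene name and does not take Slc6a20a and Slc6a20b, whose symbols end in a letter. They are counted below among the other amino acid carriers. The group was picked with earlier results of these data known. RNA-seq was done on mpkCCD cells, a mouse line that serves as a model of the principal cell of the kidney collecting duct, at passages 18 to 32 on Transwell supports. In the shGR1 and shGR2 cells the glucocorticoid receptor gene Nr3c1 was knocked down with a different small hairpin RNA each, and the shCtrl cells carried a hairpin without a target. All 3 lines were stably infected and selected with puromycin, and all were kept in the vehicle condition, without dDAVP (0 nM), after serum and all supplements but dexamethasone, an agonist of the receptor, had been withdrawn. Each line gave 1 library, so 3 libraries in all. The difference of one line from shCtrl has no replicate check, both lines are set against the same shCtrl library, and each SD printed after a mean is taken over shGR1 and shGR2.

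Amino acid carriers work in layers. Sodium-coupled symporters load the cell with glutamine, alanine, serine and glycine, and exchangers then trade those amino acids for leucine, arginine or cystine. Several exchangers are pairs of proteins: a heavy chain, Slc3a2 (4F2hc, CD98) or Slc3a1 (rBAT), takes a light chain of the SLC7 family to the membrane. Slc7a5 (LAT1) brings in leucine and other large neutral amino acids and so feeds the mTORC1 kinase, and Slc38a2 (SNAT2) is the carrier that cells raise when amino acids run short or the medium is hypertonic. The response to amino acid shortage runs in part through ATF4, a transcription factor that binds C/EBP-ATF response elements. The collecting duct is not a site of bulk amino acid reabsorption, which belongs to the proximal tubule. The name of the group is not exact: the rule also takes carriers whose substrates are not amino acids, namely Slc6a2, Slc6a3 and Slc6a4 for monoamines, Slc6a8 for creatine and Slc43a3 for purine nucleobases.

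Promoter windows from RefSeq (GRCm38.p6) were searched on both strands for TGATGNAA, the core of the C/EBP-ATF response element, and for one spelling of the glucocorticoid response element known by its inverted repeat. A window runs from 250 bases before to 50 bases after a start site. Of 32851 windows of all genes, 3.97% held the first motif and 0.14% the second. Windows were at hand for 42 members (59 windows), 21 of them expressed (31 windows). The first motif was found in 3 expressed members, Slc7a11, Slc1a4 and Slc7a7, and in Slc6a21, which was at 0 FPKM. Counted by window, as for all genes, 5 of the 59 member windows held it, with overlapping windows of Slc7a7 among them. The second motif was in 0 member windows, which says only that these letters are not in them. Slc7a11, the cystine carrier, is shown because its window holds 2 matches, the first bases of which lie 66 and 47 bases before the start site. Slc1a4, an alanine-serine-cysteine carrier, was chosen after its values were seen, because its transcripts differ in their start sites. Its 1 match begins 4 bases before the start site of ENSMUST00000109594 and runs across it. Slc38a2, the most abundant member in both knockdown lines, is shown as a window without a match. The rest of the gene was not searched. Capitals mark the matches, and all 3 genes lie on the minus strand, at chr3:50443564-50443863 (Slc7a11, 44.7% G and C), chr11:20332664-20332963 (Slc1a4, 65% G and C) and chr15:96699679-96699978 (Slc38a2, 73% G and C).
Slc7a11: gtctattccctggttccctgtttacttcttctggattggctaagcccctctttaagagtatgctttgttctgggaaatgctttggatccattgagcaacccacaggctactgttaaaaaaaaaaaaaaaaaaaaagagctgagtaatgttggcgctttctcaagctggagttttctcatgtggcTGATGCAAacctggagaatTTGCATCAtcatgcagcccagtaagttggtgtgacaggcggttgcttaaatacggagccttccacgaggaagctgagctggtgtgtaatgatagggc
Slc1a4: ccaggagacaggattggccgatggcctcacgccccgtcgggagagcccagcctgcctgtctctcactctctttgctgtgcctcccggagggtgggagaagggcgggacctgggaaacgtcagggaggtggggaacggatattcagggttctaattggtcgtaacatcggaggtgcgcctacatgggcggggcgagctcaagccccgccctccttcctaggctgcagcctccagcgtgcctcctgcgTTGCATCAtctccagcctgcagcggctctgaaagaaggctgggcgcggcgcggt
Slc38a2: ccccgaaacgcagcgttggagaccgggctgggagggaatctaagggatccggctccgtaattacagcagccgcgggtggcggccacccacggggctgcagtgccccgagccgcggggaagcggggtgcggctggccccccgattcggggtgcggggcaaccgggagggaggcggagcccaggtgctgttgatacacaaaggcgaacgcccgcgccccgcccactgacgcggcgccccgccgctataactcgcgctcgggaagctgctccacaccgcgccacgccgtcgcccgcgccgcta
A match is a description of the letters and not a bound site, and no factor was measured on DNA here.

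The receptor transcript was lower in shGR1 and shGR2, as their labels would have it, and the libraries were otherwise similar in scale. Nr3c1 was at 4.41 FPKM in shGR1 cells and 9.13 FPKM in shGR2 cells, against 30.2 FPKM in shCtrl cells, which leaves 14.6% (shGR1) and 30.3% (shGR2) of the control level in these libraries. The paper itself gives a smaller reduction of the receptor mRNA, close to equal in shGR1 and shGR2. FPKM summed to between 427704 and 462522 per library. The worth of 1 fragment, read from the smallest FPKM steps of single-transcript genes, was 0.976 (shGR1) and 0.869 (shGR2) times that in shCtrl, which is a crude measure of relative depth. The identity of the cells was checked with 12 principal cell markers, of which 9 were expressed. Their summed FPKM was 111 in shGR1 and 163 in shGR2 cells, against 339 in shCtrl cells, and Aqp2 itself was at 0.751, 2.14 and 9.55 FPKM in shGR1, shGR2 and shCtrl cells. Scnn1a made up 21.7, 27.2 and 168 FPKM of those sums, and the markers did not all go one way: Aqp3 was at 9.11, 8.97 and 6.49 FPKM, Scnn1b at 0.198, 0.256 and 0.101 FPKM and Hsd11b2 at 19.5, 55.8 and 27.8 FPKM in the same order of lines. Of 8 proximal tubule markers 2 were expressed, with sums of 1.67, 2.82 and 1.52 FPKM in shGR1, shGR2 and shCtrl cells, and Slc34a1, Slc22a6 and Slc5a12 were listed at 0. Of 6 intercalated cell markers 1 was expressed (sums 1.55, 2.01 and 0.954 FPKM), of 8 neuron and glia markers 5 (2.69, 4.60 and 5.70 FPKM), of 6 leukocyte markers 2 (13.8, 14.2 and 20.8 FPKM) and of 6 fibroblast markers 4 (3.93, 9.10 and 6.49 FPKM). Their part in the results was not tested. In bulk RNA, fewer cells of a kind and less RNA per cell cannot be told apart.

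The amino acid carriers of these cells were dominated by a few genes. Slc3a2, Slc38a2 and Slc7a1 together held 66.0% of the members' FPKM in shGR1 cells and 65.8% in shGR2 cells, against 64.2% in shCtrl cells. Summed over the 59 members, FPKM came to 910 (shGR1) and 925 (shGR2), against 1007 (shCtrl), log2 ratios of -0.15 and -0.12. That was 0.209% and 0.216% of all FPKM in the knockdown lines and 0.218% in shCtrl cells. FPKM is scaled to transcript length, so levels can be set side by side between genes.

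**Figure D1:**
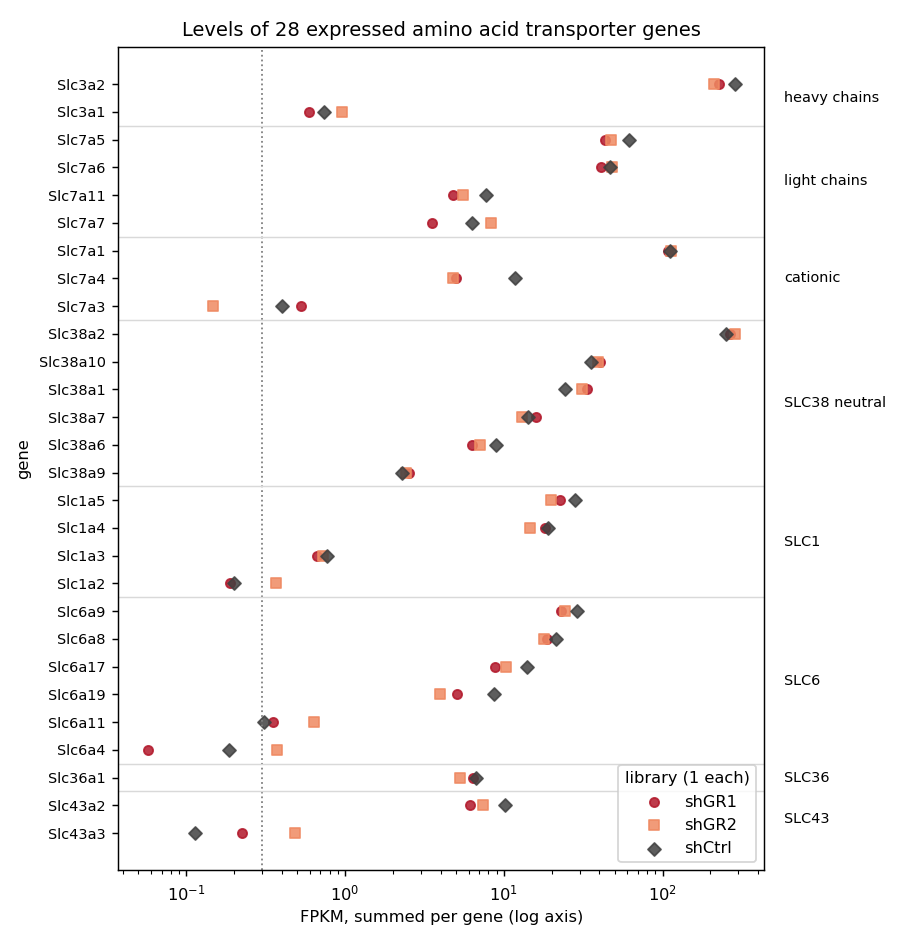
FPKM summed per gene (log axis) of the 28 expressed amino acid transporter genes, grouped by family, with 1 point per library and a dotted line at 0.3 FPKM. Slc3a2, Slc38a2 and Slc7a1 lie above 100 FPKM in every library, and the widest gap between the lines is that of Slc6a4, at 0.0572 FPKM in shGR1 and 0.374 FPKM in shGR2.

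The heavy chain Slc3a2, the most abundant member in shCtrl cells, and its leucine carrier partner Slc7a5 were lower in both knockdown lines. Slc3a2 (chromosome 19, 8706882 to 8723369 on GRCm38, minus strand) was at 227 FPKM in shGR1 cells and 211 FPKM in shGR2 cells, against 285 FPKM in shCtrl cells. Both lines lay below the control, with the log2 ratio averaging -0.38 ± 0.08 (SD over 2 lines here and in the rest of the text). Slc7a5 (chromosome 8, 121881150 to 121907694, minus strand) was at 43.4 FPKM in shGR1 and 47.6 FPKM in shGR2 cells, against 61.6 FPKM in shCtrl cells, a mean log2 ratio of -0.44 ± 0.09. For both genes the distance to shCtrl was larger than the distance between the lines. The light chain Slc7a11 (xCT), which exports glutamate in exchange for cystine, was at 4.78 and 5.51 FPKM in shGR1 and shGR2 cells, against 7.68 FPKM in shCtrl cells (-0.58 ± 0.15). By gene sum, the other expressed light chains did not share this order. Slc7a6 (y+LAT2), an exchanger of arginine for neutral amino acids, was at 40.8 FPKM in shGR1 and 48.2 FPKM in shGR2 cells, against 46.5 FPKM in shCtrl cells, so the control lay between the lines. Slc7a7 (y+LAT1), its relative in absorptive epithelia, was at 3.54 FPKM in shGR1 and 8.31 FPKM in shGR2 cells, against 6.34 FPKM in shCtrl cells. These lines differed by more from each other than either did from the control. The second heavy chain, Slc3a1, was at 0.593 and 0.954 FPKM in shGR1 and shGR2 cells, against 0.739 FPKM in shCtrl cells, and its partner Slc7a9 in the cystine carrier of the proximal tubule stayed at or under 0.112 FPKM. Set against the 6 light chains known to pair with it, Slc3a2 had 2.45 (shGR1) and 1.92 (shGR2) FPKM for each FPKM of light chain, against 2.33 (shCtrl), and the control again lay between the lines.

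Of the expressed cationic carriers, the most abundant was level and the second was the lowest of the group by ratio. Slc7a1 (CAT1), the general arginine and lysine carrier, was at 108 FPKM in shGR1 and 112 FPKM in shGR2 cells, against 111 FPKM in shCtrl cells, and its log2 ratios were -0.04 and 0.01 (0.06 and 0.13 with quantile normalization). Slc7a4, which is placed among the cationic carriers by sequence though transport by it alone has not been shown, was at 5.03 and 4.77 FPKM in shGR1 and shGR2 cells, against 11.8 FPKM in shCtrl cells. Its mean log2 ratio of -1.27 ± 0.05 was the lowest of the expressed members with the same direction in both lines, with -1.23 in shGR1 and -1.31 in shGR2. Slc7a4 (chromosome 16, 17572018 to 17583214, minus strand) overlaps P2rx6 on the other strand, which was at no more than 0.0215 FPKM in any library. Slc7a3, the third, was at 0.531 FPKM in shGR1, 0.148 FPKM in shGR2 and 0.398 FPKM in shCtrl cells, with the lines on opposite sides of the control.

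The sodium-coupled neutral carriers of the SLC38 family were, as a class, the ones with more higher than lower members. Of 6 expressed members out of 11, 4 were higher in both lines, 1 was lower and 1 was opposite. Among all expressed genes 31.8% were higher and 43.8% lower, or 39.9% and 35.5% with quantile normalization. Of these 4 members only Slc38a1 was at least 1.25-fold higher in both lines. The summed FPKM of the class was 364 (shGR1) and 379 (shGR2), against 337 (shCtrl), log2 ratios of 0.11 and 0.17. Slc38a2 (SNAT2) was at 265 FPKM in shGR1 and 285 FPKM in shGR2 cells, against 251 FPKM in shCtrl cells, which is 0.13 ± 0.07 on the log2 scale. It was thus above Slc3a2 in both knockdown lines and below it in shCtrl cells. Slc38a1 (SNAT1), a glutamine carrier, was at 33.4 FPKM in shGR1 and 31.1 FPKM in shGR2 cells, against 24.4 FPKM in shCtrl cells (0.40 ± 0.07). It was the member with the largest higher ratio among those at 1 FPKM or more. Slc38a10, whose role in transport is less defined, was at 40.5 and 39.2 FPKM in shGR1 and shGR2 cells, against 35.5 FPKM in shCtrl cells (0.17 ± 0.03). Slc38a9, the lysosomal carrier that reports arginine to mTORC1, was at 2.53 and 2.42 FPKM in the knockdown lines, against 2.28 FPKM in shCtrl cells (0.12 ± 0.05). The lower member was Slc38a6, at 6.32 FPKM in shGR1 and 7.10 FPKM in shGR2 cells, against 8.90 FPKM in shCtrl cells (-0.41 ± 0.12). Slc38a7, a lysosomal glutamine carrier, was at 15.96 FPKM in shGR1 and 12.97 FPKM in shGR2 cells, with shCtrl cells between them at 14.3 FPKM. Slc38a1 and Slc38a2 are neighbours on chromosome 15, at 96571418 to 96642913 and 96687392 to 96699730. For each FPKM of Slc7a5 there were 6.12 (shGR1) and 6.0 (shGR2) FPKM of Slc38a2, against 4.08 (shCtrl).

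Of the 7 SLC1 carriers 4 were expressed. Slc1a5 (ASCT2), an exchanger that takes up glutamine, was at 22.7 FPKM in shGR1 and 19.8 FPKM in shGR2 cells, against 28.1 FPKM in shCtrl cells (-0.41 ± 0.14), and both lines lay below the control. Slc1a4 (ASCT1), which exchanges alanine, serine and cysteine, was at 18.2 FPKM in shGR1 and 14.6 FPKM in shGR2 cells, against 18.9 FPKM in shCtrl cells. Its log2 ratios were -0.05 and -0.37, and its mean of -0.21 was smaller than the SD of 0.22. With quantile normalization shGR1 was level with shCtrl (a log2 ratio of 0) and shGR2 at -0.26. The glutamate carriers of glia were low: Slc1a3 was at 0.671, 0.723 and 0.765 FPKM and Slc1a2 at 0.190, 0.369 and 0.201 FPKM in shGR1, shGR2 and shCtrl cells.

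Of the 17 SLC6 carriers 6 were expressed, 4 of them lower in both lines, 1 higher and 1 opposite. Among all expressed genes 43.8% were lower in both lines and 31.8% higher. Slc6a9 (GlyT1), the glycine carrier, was at 22.9 FPKM in shGR1 and 24.2 FPKM in shGR2 cells, against 28.9 FPKM in shCtrl cells (-0.30 ± 0.06). Slc6a8, the creatine carrier, was at 18.6 and 17.8 FPKM in shGR1 and shGR2 cells, against 21.2 FPKM in shCtrl cells (-0.22 ± 0.05). Slc6a17, a neutral amino acid carrier of synaptic vesicles in neurons, was at 8.75 FPKM in shGR1 and 10.4 FPKM in shGR2 cells, against 13.9 FPKM in shCtrl cells (-0.55 ± 0.17). For these 3 genes the control lay above both lines. Slc6a19 (B0AT1), the main neutral amino acid carrier of the proximal tubule brush border, was at 5.04 FPKM in shGR1 and 3.98 FPKM in shGR2 cells, against 8.67 FPKM in shCtrl cells (-0.95 ± 0.24). It was the second lowest of the expressed members with the same direction in both lines, but its FPKM did not come from the transcript that codes for the carrier, as given with the transcripts. Collectrin (listed as Tmem27), a partner that brings this carrier to the membrane in the kidney, was at 0 FPKM in every library. The GABA carrier Slc6a11 was at 0.352, 0.636 and 0.309 FPKM and the serotonin carrier Slc6a4 at 0.0572, 0.374 and 0.187 FPKM in shGR1, shGR2 and shCtrl cells.

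The families SLC36 and SLC43 had 3 expressed members. Slc36a1 (PAT1), a proton-coupled carrier of lysosomes and the cell surface, was at 6.40 FPKM in shGR1 and 5.27 FPKM in shGR2 cells, against 6.72 FPKM in shCtrl cells, and shGR1 was within 0.07 log2 units of the control. Slc43a2 (LAT4), a uniporter that lets branched-chain amino acids, methionine and phenylalanine out of epithelial cells, was at 6.11 FPKM in shGR1 and 7.34 FPKM in shGR2 cells, against 10.2 FPKM in shCtrl cells (-0.61 ± 0.19). The nucleobase carrier Slc43a3 was at 0.224 and 0.481 FPKM in shGR1 and shGR2 cells, against 0.113 FPKM in shCtrl cells.

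The 7 expressed members that stayed under 1 FPKM rest on few fragments. Roughly 4.9 to 130 fragments per library stood behind Slc1a2, Slc1a3, Slc3a1, Slc6a4, Slc6a11, Slc7a3 and Slc43a3, estimated from the FPKM worth of 1 fragment. Slc1a2, Slc6a4 and Slc43a3 were over 0.3 FPKM in shGR2 cells alone, so their inclusion depended on that library. Slc7a3 was over it in shGR1 and shCtrl cells.

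In total, 14 of the 28 expressed members (50%) were lower than shCtrl in both knockdown lines, against 43.8% of all 15438 expressed genes. Another 6 (21.4%) were higher in both, against 31.8%, and 8 (28.6%) were opposite, against 24.5%. The median log2 ratio of the members was -0.19 in shGR1 and -0.20 in shGR2, where all expressed genes had -0.03 and -0.07. In shGR2 alone 16 members were lower (57.1%, against 58.1% of all genes) and 12 higher (42.9%, against 41.5%). In shGR1 alone 20 were lower (71.4%, against 53.0%) and 8 higher (28.6%, against 46.5%). The split of all genes depended on the scaling, with 38.2% lower and 37.5% higher after centring on the median and 35.5% and 39.9% after quantile normalization. The members' counts were 14 and 6 with centring and 13 and 7 with quantile normalization. Differences of at least 1.25-fold in both lines were found for 8 lower members, where all genes had 16.1%, and for 2 higher members (Slc38a1 and Slc43a3), where all genes had 10.4%. The 8 were Slc7a4, Slc6a19, Slc43a2, Slc7a11, Slc6a17, Slc7a5, Slc38a6 and Slc3a2. They were 5 with centring on the median, which left out Slc7a5, Slc38a6 and Slc3a2, and 4 with quantile normalization, which left out Slc6a17 as well. The share of all genes at 1.25-fold was counted without rescaling only, so the counts of 5 and 4 have none beside them. Slc43a3 was among the expressed members only through shGR2, where it was highest, and its coding transcripts alone had log2 ratios of -1.13 in shGR1 and 1.63 in shGR2. At 2-fold there was 1 lower member, Slc7a4 (3.57% of the 28, against 3.66% of all genes), and there were 0 higher members, against 2.54%. Those counts were 3 and 2 in shGR2 alone and 2 and 0 in shGR1 alone. The share of all genes at 2-fold in a single line was not counted. Among the 21 members at 1 FPKM or more in every library, 13 were lower and 4 higher, where 46.1% and 32.2% of 11813 genes were.

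**Figure D2:**
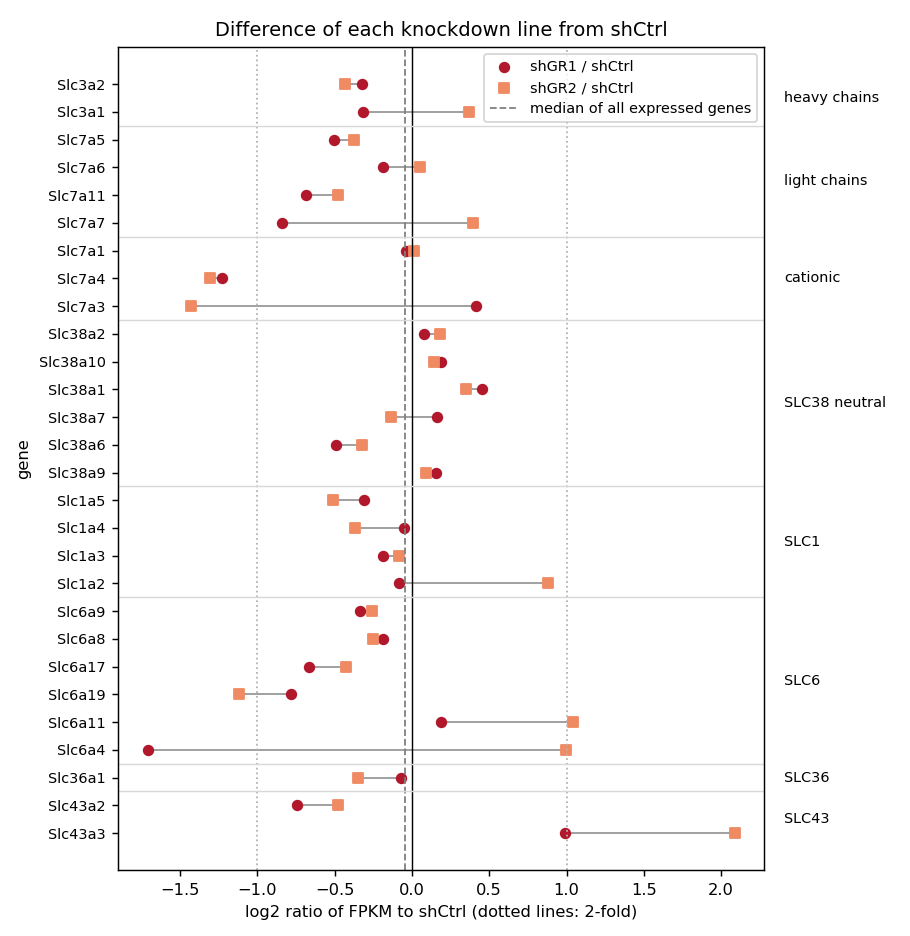
Log2 ratio of FPKM to shCtrl in shGR1 (circles) and shGR2 (squares) for each of the 28 expressed members, joined by a line, with the median of all expressed genes dashed and 2-fold differences dotted. Slc7a4 alone has both points beyond 2-fold below shCtrl, and most SLC38 members lie to the right of 0.

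No member passed the test on single genes. In limma on log2(FPKM + 0.1), with the knockdown lines as replicates against the lone control library, which is assumed to vary as they do, 0 of the 15438 genes and so 0 members passed a Benjamini-Hochberg adjusted p under 0.05. At an unadjusted p under 0.05 there were 6 lower members (21.4%, against 9.44% of all genes) and 1 higher member (3.57%, against 4.53%). The lower ones were Slc7a4 (limma adjusted p = 0.255), Slc7a5 (0.305), Slc6a19 (0.308), Slc3a2 (0.310), Slc43a2 and Slc6a17 (0.354 each), and the higher one was Slc38a1 (limma adjusted p = 0.317). An exact permutation of 2 lines against 1 library cannot reach 0.05. For 19 of the 28 members the mean log2 ratio was larger than the SD over the lines. The lines lay apart by a median of 0.22 log2 units in the members and 0.18 in all expressed genes. Of the 14 lower members 7 were lowest in shGR1, whose library had less of the receptor transcript, and 7 in shGR2.

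The deposited table gives each Ensembl transcript separately, 313 for the members, 196 of them above 0 in any library. Transcript values are estimates that Cufflinks makes by splitting shared fragments. Slc7a5 (ENSMUST00000045557), Slc7a11 (ENSMUST00000029297) and Slc7a1 (ENSMUST00000048116) took between 97.2% and 99.2% of their FPKM from 1 coding transcript, and Slc38a2 took 100% from its single one. Slc3a2 took 86.9% (shGR1), 88.0% (shGR2) and 87.0% (shCtrl) from ENSMUST00000010239. For these genes the gene sum is close to the level of the coding transcript.

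Slc6a19 was the opposite case. Its full coding transcript, ENSMUST00000022048, was listed at 0 in all 3 libraries. The gene sum came mainly from 3 processed transcripts that start inside the gene. The longest, ENSMUST00000120322, was at 2.39 FPKM in shGR1 and 2.02 FPKM in shGR2 cells, against 3.53 FPKM in shCtrl cells. ENSMUST00000139087 was at 1.43 and 1.17 FPKM, against 2.88 FPKM in shCtrl cells, and ENSMUST00000140878 at 1.01 and 0.526 FPKM, against 1.96 FPKM in shCtrl cells. All 3 were lower in both lines, and 0% of the gene's FPKM was annotated as protein-coding. In Slc7a4, coding transcripts of GENCODE M21 held 22.2% (shGR1), 28.3% (shGR2) and 30.3% (shCtrl) of the FPKM. Its most abundant transcript, ENSMUST00000116648, which is not in that annotation, was at 2.12 FPKM in shGR1 and 1.81 FPKM in shGR2 cells, against 4.81 FPKM in shCtrl cells. The coding ENSMUST00000063544 was at 0.489 and 1.16 FPKM, against 2.38 FPKM in shCtrl cells, so both were lower in each line.

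The share of the gene held by each Slc1a4 transcript differed between the knockdown lines and shCtrl, with the same transcript ahead in all 3 libraries. ENSMUST00000004634 was at 14.1 FPKM in shGR1 and 11.9 FPKM in shGR2 cells, against 9.66 FPKM in shCtrl cells. ENSMUST00000109594 was at 4.12 FPKM in shGR1 and 2.74 FPKM in shGR2 cells, against 9.20 FPKM in shCtrl cells. The first thus held 77.4% and 81.2% of the gene in the knockdown lines, against 51.2% in shCtrl cells. Among 19 members with more than 1 transcript and at least 1 FPKM throughout, Slc1a4 alone had a transcript share that moved by at least 20 percentage points the same way in both lines (5.26%, against 5.38% of 9196 genes). The 2 transcripts have 8 exons each, 6 with the same bounds. Their start sites (20332684 and 20332713 on chromosome 11) lie 29 bases apart, their ends 25 bases apart, and their coding lengths are 1356 and 1596 bases, so most of their sequence is shared. Both start sites lie inside the promoter window printed for Slc1a4.

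Other members were mixed by transcript. The main transcript of Slc6a17, ENSMUST00000169449, was at 5.53 and 7.64 FPKM in shGR1 and shGR2 cells, against 11.04 FPKM in shCtrl cells. ENSMUST00000168211 of the same gene, annotated for nonsense-mediated decay, was at 1.21 and 1.58 FPKM, against 0.468 FPKM in shCtrl cells, and was higher in both lines. For Slc6a9, ENSMUST00000030269 was at 4.72 and 8.65 FPKM, against 12.4 FPKM in shCtrl cells, and ENSMUST00000163288 at 5.17 and 6.93 FPKM, against 3.71 FPKM in shCtrl cells. For Slc6a8, ENSMUST00000033752 was at 5.82 and 6.25 FPKM, against 9.48 FPKM in shCtrl cells, whereas ENSMUST00000114467 was at 2.88 and 2.00 FPKM, against 0.379 FPKM in shCtrl cells. The coding transcript of Slc7a6 with the most FPKM, ENSMUST00000034378, was at 20.6 FPKM in shGR1 and 29.9 FPKM in shGR2 cells, against 30.6 FPKM in shCtrl cells. That of Slc7a7, ENSMUST00000197440, was at 1.68 FPKM in shGR1 and 2.64 FPKM in shGR2 cells, against 3.34 FPKM in shCtrl cells. Both were lower in both lines, unlike the sums of their genes. The leading transcript of Slc1a5, ENSMUST00000108496, was at 9.26 and 11.3 FPKM, against 12.6 FPKM in shCtrl cells, and that of Slc38a6, ENSMUST00000140523, at 3.66 and 5.18 FPKM, against 7.46 FPKM in shCtrl cells. Coding transcripts held 40.8% (shGR1), 57.2% (shGR2) and 44.7% (shCtrl) of the FPKM of Slc1a5. Their log2 ratios were -0.44 in shGR1 and -0.15 in shGR2, so shGR1 was the lower line, whereas shGR2 was lower by the gene sum. In Slc43a2, ENSMUST00000042561 was at 3.39 and 4.26 FPKM, against 4.15 FPKM in shCtrl cells, and the lower gene sum lay more with ENSMUST00000108433 (0.884 and 0.556 FPKM, against 2.41 FPKM in shCtrl cells). In Slc38a1 all 3 coding transcripts with at least 10% of the gene were higher in both lines, led by ENSMUST00000088454 at 20.2 and 18.7 FPKM, against 14.1 FPKM in shCtrl cells. Counted by the dominant transcript in place of the gene sum, Slc1a4 was higher in both lines, Slc1a3, Slc36a1 and Slc43a2 were opposite, and Slc7a6 and Slc7a7 were lower in both. Slc7a3 came out higher in both by that count, over a shCtrl value near 0.

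**Figure D3:**
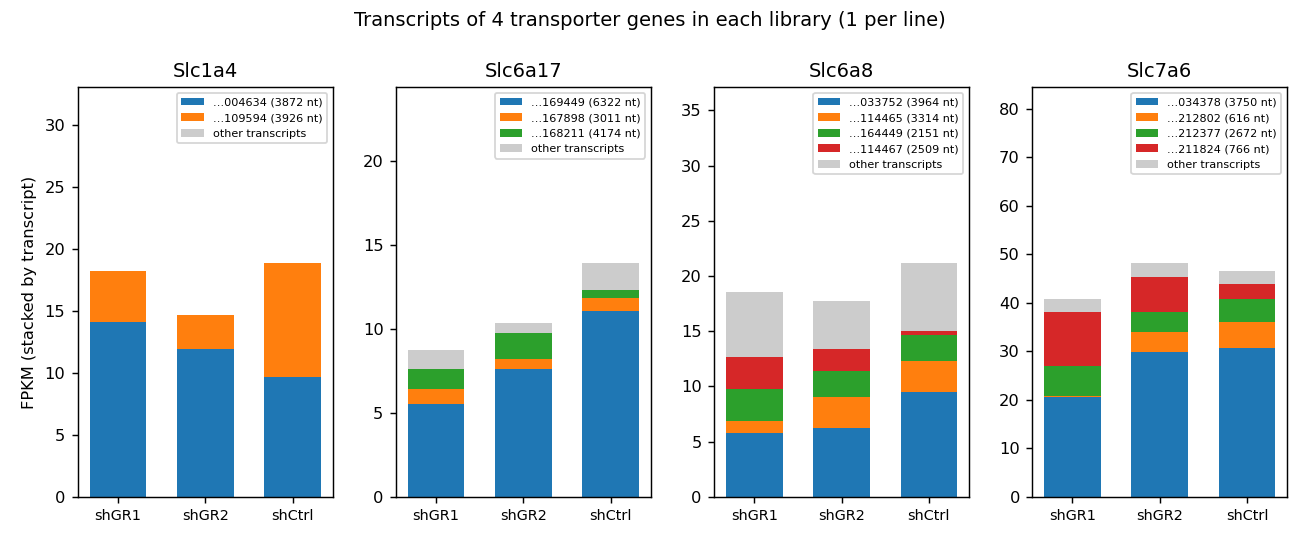
FPKM of each Ensembl transcript, stacked, for Slc1a4, Slc6a17, Slc6a8 and Slc7a6 in the shGR1, shGR2 and shCtrl libraries (legends give the last digits of the identifier and the length in nt). In Slc1a4 the shorter transcript takes 77.4% and 81.2% of the knockdown bars and 51.2% of the shCtrl bar.

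Neither the labels nor the methods say whether the libraries kept strand, and the part of overlapping genes in these values was not tested. Of the 28 expressed members, 14 overlap another GENCODE M21 gene, and 4 overlap one over 0.3 FPKM. Slc3a1 overlaps Prepl (22.4, 21.1 and 20.9 FPKM in shGR1, shGR2 and shCtrl cells), Slc7a7 overlaps Oxa1l (20.2, 21.2 and 22.0 FPKM) and Slc6a9 overlaps B4galt2 (11.3, 6.63 and 6.43 FPKM), all on the other strand. Slc7a5 lies inside the long span of Gm20388, which was listed at 0 in shGR1 and shGR2 cells and at 14.8 FPKM in shCtrl cells. The annotated exons of Slc7a5 and Gm20388 share 0 bases.

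The remaining 31 members were not expressed, the highest value being 0.290 FPKM for Slc7a8 in shGR2 cells. They were 11 SLC6 carriers, 6 light chains, 5 SLC38 carriers, 3 SLC1 carriers, 3 SLC36 carriers, 2 cationic carriers and 1 SLC43 carrier. Slc1a7, Slc6a21, Slc7a12, Slc36a3, Slc38a5, Slc38a8 and Slc38a11 were at 0 in every library. Besides Slc6a21, the SLC6 group held the glycine carrier Slc6a5, the GABA carrier Slc6a13, the dopamine and norepinephrine carriers Slc6a3 and Slc6a2, and Slc6a7, Slc6a14, Slc6a15, Slc6a16 and Slc6a18, all at or under 0.146 FPKM. Among light chains Slc7a9, Slc7a10, Slc7a13 and Slc7a15 stayed at or under 0.157 FPKM. The rest were the cationic Slc7a2 and Slc7a14, the glutamate carriers Slc1a1 and Slc1a6, the proton-coupled Slc36a2 and Slc36a4, the neutral carriers Slc38a3 and Slc38a4, and Slc43a1, with Slc38a3 the highest at 0.269 FPKM in shGR2 cells.

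Genes that make, sense or use the same amino acids were counted in the same way. The shares to set beside each list below are those of all expressed genes, 43.8% lower, 31.8% higher and 24.5% opposite. With quantile normalization 35.5% of all genes were lower and 39.9% higher. The lists were counted without rescaling only. Among 24 ATF4 targets of amino acid supply (no member included), 23 were expressed, 15 lower in both lines, 4 higher and 4 opposite. Atf4 itself, which was counted among the 24 genes and the 15 lower ones, was at 270 FPKM in shGR1 and 252 FPKM in shGR2 cells, against 285 FPKM in shCtrl cells (-0.13 ± 0.07). The lowest by mean log2 ratio were the stress protein gene Nupr1 (-0.89 ± 0.16) and Ddit3, which codes for CHOP (-0.50 ± 0.22), and the highest were the transcription factor gene Atf3 (0.63 ± 0.38) and the lipoprotein receptor gene Vldlr (0.31 ± 0.08). Cytosolic aminoacyl-tRNA synthetases, which load amino acids onto tRNA, were all 20 expressed, with 5 lower, 6 higher and 9 opposite. They ran from the valine enzyme gene Vars (81.4 and 78.7 FPKM in shGR1 and shGR2 cells, against 131 FPKM in shCtrl cells, -0.72 ± 0.03) and the methionine enzyme gene Mars (-0.19 ± 0.09) to Dars (0.15 ± 0.13) and Hars (0.18 ± 0.04), for aspartate and histidine.

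Cystine brought in by Slc7a11 goes into glutathione. Of 9 genes of glutathione synthesis and cystine use 5 were lower in both lines, 2 higher and 2 opposite. Gclc, the catalytic subunit of the rate-limiting enzyme, was at 33.1 FPKM in shGR1 and 48.6 FPKM in shGR2 cells, against 92.7 FPKM in shCtrl cells (-1.21 ± 0.39). Cbs, which starts cysteine synthesis from homocysteine, was at 0.0563 and 0.153 FPKM, against 0.642 FPKM in shCtrl cells (-2.79 ± 1.02). Cbs was over 0.3 FPKM in shCtrl cells alone, where it was highest. Its place among the 5 lower genes depended on that library. Ggt1, the surface enzyme that breaks glutathione down, was at 5.16 and 8.83 FPKM, against 2.23 FPKM in shCtrl cells (1.60 ± 0.55), and the second highest, glutathione reductase Gsr, was opposite between the lines at a mean of 0.04. Of 10 genes of glutamine and glutamate metabolism 7 were lower, 1 higher and 2 opposite. Ass1, for argininosuccinate synthase, was at 2.16 and 1.96 FPKM in shGR1 and shGR2 cells, against 5.11 FPKM in shCtrl cells (-1.31 ± 0.10). Glutamine synthetase Glul had -0.56 ± 0.05. The highest were Oat (0.24 ± 0.96, opposite between the lines) and the aminotransferase gene Got1 (0.20 ± 0.14).

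Of 7 genes of branched-chain amino acid breakdown 4 were lower in both lines, 1 higher and 2 opposite. The cytosolic aminotransferase gene Bcat1 was at -0.63 ± 0.17 and Bckdha, of the dehydrogenase complex, at -0.37 ± 0.12, whereas the mitochondrial aminotransferase gene Bcat2 was at 0.61 ± 0.25 and the kinase gene Bckdk, opposite between the lines, at 0.11 ± 0.20. Of 21 expressed genes of amino acid sensing upstream of mTORC1 (of 23) 13 were lower, 4 higher and 4 opposite. The arginine sensor CASTOR1 (listed as Gatsl3) was at 1.61 and 1.80 FPKM in shGR1 and shGR2 cells, against 2.92 FPKM in shCtrl cells (-0.78 ± 0.11), and the Ragulator subunit gene Lamtor5 had -0.50 ± 0.07. The sestrin gene Sesn3 (0.36 ± 0.09) and Depdc5 of the GATOR1 complex (0.13 ± 0.06) were the highest. Of 10 expressed other amino acid carriers (of 14) 5 were lower, 1 higher and 4 opposite. The mitochondrial carriers Slc25a15 for ornithine (-0.45 ± 0.24) and Slc25a12 for aspartate and glutamate (-0.39 ± 0.22) were the lowest. Slc16a10 (TAT1), an aromatic amino acid uniporter, was at 3.93 and 5.46 FPKM, against 2.70 FPKM in shCtrl cells (0.78 ± 0.34), and Slc25a13, opposite between the lines, had 0.11 ± 0.21.

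Of 10 partners and regulators of the transporters 8 were expressed, 4 lower in both lines, 2 higher and 2 opposite. Sgk1, a glucocorticoid-induced kinase that raises the surface level of several carriers, was at 2.36 FPKM in shGR1 and 3.92 FPKM in shGR2 cells, against 99.8 FPKM in shCtrl cells (-5.04 ± 0.52). Its relative Sgk3 was at 25.4 and 38.8 FPKM, against 44.1 FPKM in shCtrl cells. The ubiquitin ligase gene Nedd4l, which acts against Sgk1, was at 15.1 and 16.9 FPKM, against 16.9 FPKM in shCtrl cells, and Nedd4 was at 0.26 ± 0.05. Cd44, which stabilizes Slc7a11 at the membrane in cancer cells, was at 12.6 and 14.2 FPKM, against 9.49 FPKM in shCtrl cells (0.50 ± 0.12). With p-values adjusted by Benjamini-Hochberg across all 15438 genes, limma called 0 genes of these 8 lists. Lower at a limma unadjusted p under 0.05 were 4 of 23 ATF4 targets, 1 of 20 tRNA synthetases and 2 of 9 glutathione genes. So were 2 of 10 glutamine and glutamate genes, 1 of 7 branched-chain genes, 2 of 21 sensing genes and 1 of 8 partners. The other carriers had 0 of 10, and all expressed genes had 9.44%. Higher were 1 of 9 glutathione genes and 1 of 8 partners, against 4.53% of all genes.

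**Figure D4:**
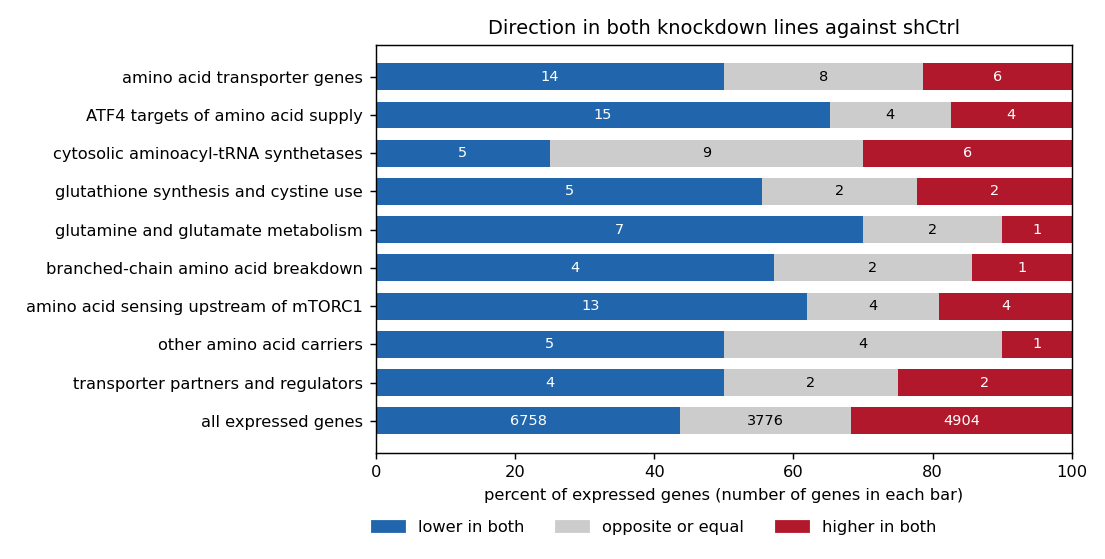
Share of the expressed genes of each list (percent, with the number of genes in each bar) that were lower in both knockdown lines, opposite or equal, or higher in both, against shCtrl. The amino acid transporter genes had 14, 8 and 6, and all 15438 expressed genes had 6758, 3776 and 4904.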

How the data were processed

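Per the submitters' processing notes, reads were handled with bcl2fastq 2.20, HISAT2 and Cufflinks 2.2.1 with Cuffdiff, on GRCm39. The authors deposited FPKM for 128603 Ensembl transcripts in 3 libraries, with ratios, p-values and q-values of their own comparisons that were not used. Positions are those of GENCODE M21 (GRCm38), since the deposited loci hold 98.6% of 127971 transcripts there. FPKM was summed per symbol (97 symbols have several gene identifiers) and ratios to shCtrl took no pseudocount. A gene was expressed over 0.3 FPKM in any library, and lower or higher when its ratio was under or over 1 in both lines. Limma 3.58.1 (R 4.3.3) took log2(FPKM + 0.1), a trend on abundance and 1 residual degree of freedom, with Benjamini-Hochberg adjustment and a threshold of 0.05. It was tested on simulated data. Every expressed member is named, and transcripts were taken from those that lead a gene or hold 10% of it, with the 2 lowest and 2 highest genes of each further list. Members and lists were chosen with earlier results of these data known. Counting error is not given, as FPKM carries no counts. Alternatives were centring on the median, quantile normalization, other minimums and pseudocounts, the dominant transcript in place of the sum, robust moderation in limma, and leaving out each line. The values of 1 member that was not expressed and of 1 partner gene are not reported here.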

Additional observations from a re-analysis of the deposited data

Results flagged for a closer look

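In 8 expressed members shGR1 and shGR2 lay on opposite sides of shCtrl, and the difference between the lines was not tested. The log2 ratio in shGR1 minus that in shGR2 was -2.71 for Slc6a4, -1.23 for Slc7a7, -0.96 for Slc1a2, -0.69 for Slc3a1, -0.24 for Slc7a6 and -0.051 for Slc7a1, all higher in shGR2. It was 1.85 for Slc7a3 and 0.30 for Slc38a7, both higher in shGR1. Slc6a4, Slc1a2, Slc3a1 and Slc7a3 were under 1 FPKM in every library. Slc7a7 was at 3.54 FPKM in shGR1 and 8.31 FPKM in shGR2 cells, against 6.34 FPKM in shCtrl cells, and overlaps Oxa1l.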

How the results depend on the processing

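No paired analysis was possible because each group has 1 library. The count of 14 lower members was 13 with quantile normalization (46.4%, against 35.5% of all genes). It was also 13 over 1 FPKM (61.9% of 21 members, against 45.7%). By the dominant transcript it was 12 (42.9%, against 46.0% of all genes). With no filter on low values it was 17 (39.5% of 43 members with finite ratios, against 41.4%). By the dominant transcript and with no filter, the members' lower share was thus below that of all genes. Where no fewer or more members entered, the cause of a move was not tested. The 6 higher members became 10 with no filter (23.3%, against 31.9% of all genes). The count of 0 members at least 2-fold higher became 1 with centring on the median, quantile normalization or no filter, and 2 by the dominant transcript. With centring or quantile normalization the 1 was Slc43a3, expressed only through shGR2, and by the dominant transcript the 2 were Slc43a3, over a shCtrl value of 0, and Slc7a3, over 0.00011 FPKM. The 1 at least 2-fold lower became 2 with no filter. The share of all genes at 2-fold was not counted under these settings or for single lines. With a single line the counts ranged over 16 to 20 lower, 8 to 12 higher, 2 to 3 at least 2-fold lower and 0 to 2 at least 2-fold higher (the lower count 16, the higher count 12, and the 2-fold counts 3 and 2, were those of shGR2 alone). The median log2 ratio of -0.22 was -0.17 with centring, -0.14 with quantile normalization, -0.21 with no filter, -0.22 over 1 FPKM, -0.21 with a pseudocount of 0.1, -0.13 with one of 1, -0.15 by the dominant transcript, and -0.20 (shGR2 alone) to -0.19 (shGR1 alone). By the dominant transcript Slc1a4 turned to a mean log2 ratio of 0.42 and Slc1a3 to 0.31. Quantile normalization left Slc1a4 opposite between the lines and Slc7a1 higher in both. Limma called 0 members under every setting, with a lowest adjusted p among members of 0.0535 with centring and 0.0816 with robust moderation, settings in which 155 lower and 66 higher, and 82 lower and 28 higher, of all genes were called. The number of members at a limma unadjusted p under 0.05 differed between settings. So did the share of all genes at that level and, with no filter, the number of members tested. For members under 1 FPKM the part of depth was not tested.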
